A study of Mus musculus with 25 samples.

Results

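The set described here holds 46 mouse genes of the Wnt pathway, namely 19 Wnt ligands, 12 receptors (Frizzled receptors and the co-receptors Lrp5 and Lrp6), 3 R-spondins, 5 secreted antagonists and 7 intracellular effectors, of 21000 protein-coding genes in the RefSeq annotation. The members were chosen by name and role and located on GRCm38 (mm10). The study examined Spin1, a reader of histone marks, in the development of skeletal muscle, and its series holds 25 samples, of which 2 ChIP-seq libraries are used here. Both came from primary myoblasts, which are cultured muscle precursor cells, isolated by preplating from the limb muscles of 10-day-old C57BL/6 mice (C57BL/6 N by the study's methods), and the labels name no mutant allele or treatment for them. Spin1 was precipitated with a custom antibody and H3K4me3, histone H3 trimethylated at lysine 4, with an antibody that the labels call anti-H3K4me in a sample titled H3K4me3. The antibodies were given unequal amounts of chromatin from the culture. There was 1 library per antibody and there were no replicates, so no difference could be held against a replicate error and no test was made. The 22 RNA-seq samples and the input library were not analysed here, so nothing is said on the expression of these genes.

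Wnt ligands are secreted lipid-modified proteins that bind Frizzled receptors and, in the canonical branch, the co-receptors Lrp5 and Lrp6. Binding stabilises β-catenin, the product of Ctnnb1, which enters the nucleus and joins DNA-bound TCF/LEF factors at target genes, whereas Axin proteins scaffold the complex that destroys β-catenin. In muscle, Wnt proteins from tissues around the somite take part in the onset of myogenesis, and Wnt signals also act on the satellite cells of postnatal muscle. Spin1 binds H3K4me3 and is known as a co-activator of TCF-dependent transcription.

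Occupancy by Spin1 was uneven over the classes. Spin1 occupied the promoters of all 12 receptors and all 7 effectors, but of 4 of 19 ligands, 1 of 3 R-spondins and 3 of 5 antagonists. H3K4me3, in contrast, was present at 17 of 19 ligands and at every member of the other classes. The promoter was TSS±1 kb (1 kb to either side of the transcription start site) of any curated transcript, and 1 bp of a peak inside it was enough for a gene to be called occupied. Spin1 was thus found at 27 of 46 members, or 58.7%, beside 56.7% of all protein-coding genes, so the share of the whole set was near the background. H3K4me3 was found at 44 of 46, or 95.7%, beside 68.0%. For short, Spin1 and H3K4me3 are both called marks here, although Spin1 is a protein that reads the histone mark. Both were present at 27 members, where the background was again 56.7%. A further 17 members had H3K4me3 alone, 2 had neither and none had Spin1 alone. Among genes with H3K4me3 at the promoter, Spin1 was also present at 83.3% of all protein-coding genes, at 61.4% of the members and at 4 of the 17 ligands. Where the H3K4me3 peak scored 3100 or more, as at all receptors and effectors, the share over protein-coding genes was 91.7%. Full occupancy of these 2 classes was thus near that share.

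**Figure D1:**
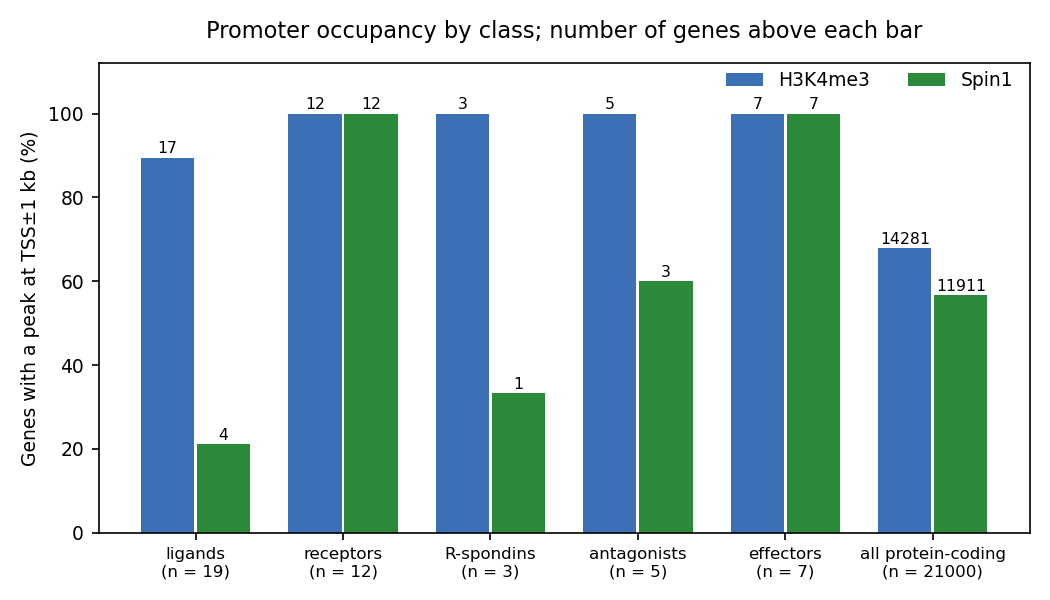
Share of genes (%) with an H3K4me3 (blue) or Spin1 (green) peak at TSS±1 kb for the 5 classes and for all 21000 protein-coding genes, with the number of genes above each bar. H3K4me3 bars are at or near full height in each class, whereas the Spin1 bar is at full height for receptors and effectors and stands at 4 of 19 genes for ligands.

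Promoter sequences are shown because the classes also differed in CpG content, and for each of 4 classes the member with the highest and the one with the lowest ratio of observed to expected CpG in TSS±1 kb is printed, among those with an entry in the RefSeq promoter table. Of 46 members, 31 had an entry. Each sequence runs on the strand of the gene from 250 bases before the start to the first 30 transcribed bases on GRCm38.p6, and CG dinucleotides are in capitals. The ligands are Wnt5b at chr6:119544318-119544597 on the minus strand, occupied by both marks, and Wnt8b at chr19:44493222-44493501 on the plus strand, occupied by neither.
Wnt5b: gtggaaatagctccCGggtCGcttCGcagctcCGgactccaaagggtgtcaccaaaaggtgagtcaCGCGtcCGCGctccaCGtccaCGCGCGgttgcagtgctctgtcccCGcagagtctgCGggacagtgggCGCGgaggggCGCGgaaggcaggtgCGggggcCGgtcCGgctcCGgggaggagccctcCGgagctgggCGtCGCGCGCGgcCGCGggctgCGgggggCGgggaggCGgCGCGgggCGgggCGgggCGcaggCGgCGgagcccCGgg
Wnt8b: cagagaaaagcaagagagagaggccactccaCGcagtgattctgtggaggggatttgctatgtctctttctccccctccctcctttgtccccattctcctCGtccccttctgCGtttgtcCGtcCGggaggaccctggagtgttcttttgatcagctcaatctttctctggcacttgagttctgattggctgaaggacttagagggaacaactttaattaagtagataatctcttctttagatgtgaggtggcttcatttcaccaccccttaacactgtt
The receptors are Fzd7 at chr1:59481897-59482176 and Fzd4 at chr7:89404116-89404395, both on the plus strand and both occupied by Spin1 and H3K4me3.
Fzd7: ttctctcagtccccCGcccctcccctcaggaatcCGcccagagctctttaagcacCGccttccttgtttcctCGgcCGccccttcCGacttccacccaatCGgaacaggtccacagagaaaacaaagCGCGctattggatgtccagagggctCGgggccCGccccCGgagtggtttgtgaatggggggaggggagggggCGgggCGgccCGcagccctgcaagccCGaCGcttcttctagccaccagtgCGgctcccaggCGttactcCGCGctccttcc
Fzd4: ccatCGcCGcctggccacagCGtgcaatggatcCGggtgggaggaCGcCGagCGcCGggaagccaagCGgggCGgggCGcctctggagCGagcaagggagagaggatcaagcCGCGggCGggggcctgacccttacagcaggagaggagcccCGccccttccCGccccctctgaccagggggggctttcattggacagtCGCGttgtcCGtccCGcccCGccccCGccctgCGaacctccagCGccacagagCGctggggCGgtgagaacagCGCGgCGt
The antagonists are Sfrp2 at chr3:83766071-83766350 on the plus strand, with both marks, and Dkk1 at chr19:30549467-30549746 on the minus strand, with H3K4me3 alone.
Sfrp2: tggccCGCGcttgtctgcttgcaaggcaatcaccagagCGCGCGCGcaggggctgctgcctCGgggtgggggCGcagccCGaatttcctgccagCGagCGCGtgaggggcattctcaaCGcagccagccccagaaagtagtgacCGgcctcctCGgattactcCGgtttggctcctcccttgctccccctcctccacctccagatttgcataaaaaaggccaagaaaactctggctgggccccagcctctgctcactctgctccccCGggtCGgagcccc
Dkk1: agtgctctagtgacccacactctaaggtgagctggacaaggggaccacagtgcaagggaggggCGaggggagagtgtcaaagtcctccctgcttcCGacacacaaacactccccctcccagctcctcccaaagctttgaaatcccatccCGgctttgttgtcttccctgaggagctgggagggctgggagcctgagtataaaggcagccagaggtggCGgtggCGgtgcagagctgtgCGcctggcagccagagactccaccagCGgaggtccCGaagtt
The effectors are Ctnnb1 at chr9:120933150-120933429 and Lef1 at chr3:131110047-131110326, both on the plus strand and with both marks.
Ctnnb1: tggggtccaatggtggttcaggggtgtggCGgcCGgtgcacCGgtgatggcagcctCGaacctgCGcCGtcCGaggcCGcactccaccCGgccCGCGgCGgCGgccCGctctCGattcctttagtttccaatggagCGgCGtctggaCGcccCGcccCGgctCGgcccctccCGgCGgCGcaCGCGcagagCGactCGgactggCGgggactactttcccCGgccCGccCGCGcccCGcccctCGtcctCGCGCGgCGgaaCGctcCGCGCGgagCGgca
Lef1: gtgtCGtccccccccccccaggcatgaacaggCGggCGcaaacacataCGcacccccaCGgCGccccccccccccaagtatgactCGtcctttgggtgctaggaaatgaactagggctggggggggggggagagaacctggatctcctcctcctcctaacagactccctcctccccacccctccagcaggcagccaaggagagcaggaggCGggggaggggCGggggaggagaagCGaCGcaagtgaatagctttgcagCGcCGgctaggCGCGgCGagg
In these 280 bases, Ctnnb1 had 44 CG dinucleotides and Wnt5b had 41. Wnt8b had 5 and Dkk1 had 8. The 2 promoters printed here that lack Spin1 were those with the fewest. Both were printed for the lowest ratio of their class, so low counts there follow in part from the choice. The counts did not always follow the ratio, as Fzd7, printed for the highest, had 21 and Fzd4, printed for the lowest, had 30.

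Start, end and score are listed for each peak. The score is the p-value of the peak caller against the input, as its negative log10 multiplied by 10. Scores pile up at 3100, a plateau that 30.9% of the peaks reached for Spin1 and 45.2% for H3K4me3, and peaks at the plateau have no order. By the widest promoter peak, H3K4me3 reached it at 12798 of 14281 protein-coding genes with H3K4me3 and at 40 of 44 members. The share of members at the H3K4me3 plateau was thus near the background. The number of reads behind a peak is not in the lists, so the depth is unknown, and signal below the threshold of the caller leaves no trace. Where a gene is said to lack Spin1, no peak was called in the window. The identity of the culture was checked against markers. Beside the markers, 56.7% of all protein-coding genes carried both marks and 68.0% carried H3K4me3, so presence alone says little on identity. All 6 myoblast markers (Myod1, Myf5, Pax7, Des, Cdh15, Itga7) carried both marks. Of 4 fibroblast markers, Pdgfra and Col1a1 carried both marks, Thy1 had H3K4me3 alone and Dpt had neither. The 3 endothelial markers had no Spin1 and H3K4me3 at 2, and the 3 blood markers had no Spin1 and H3K4me3 at 1. The part of other cells in the peaks at Wnt genes was not tested.

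**Figure D2:**
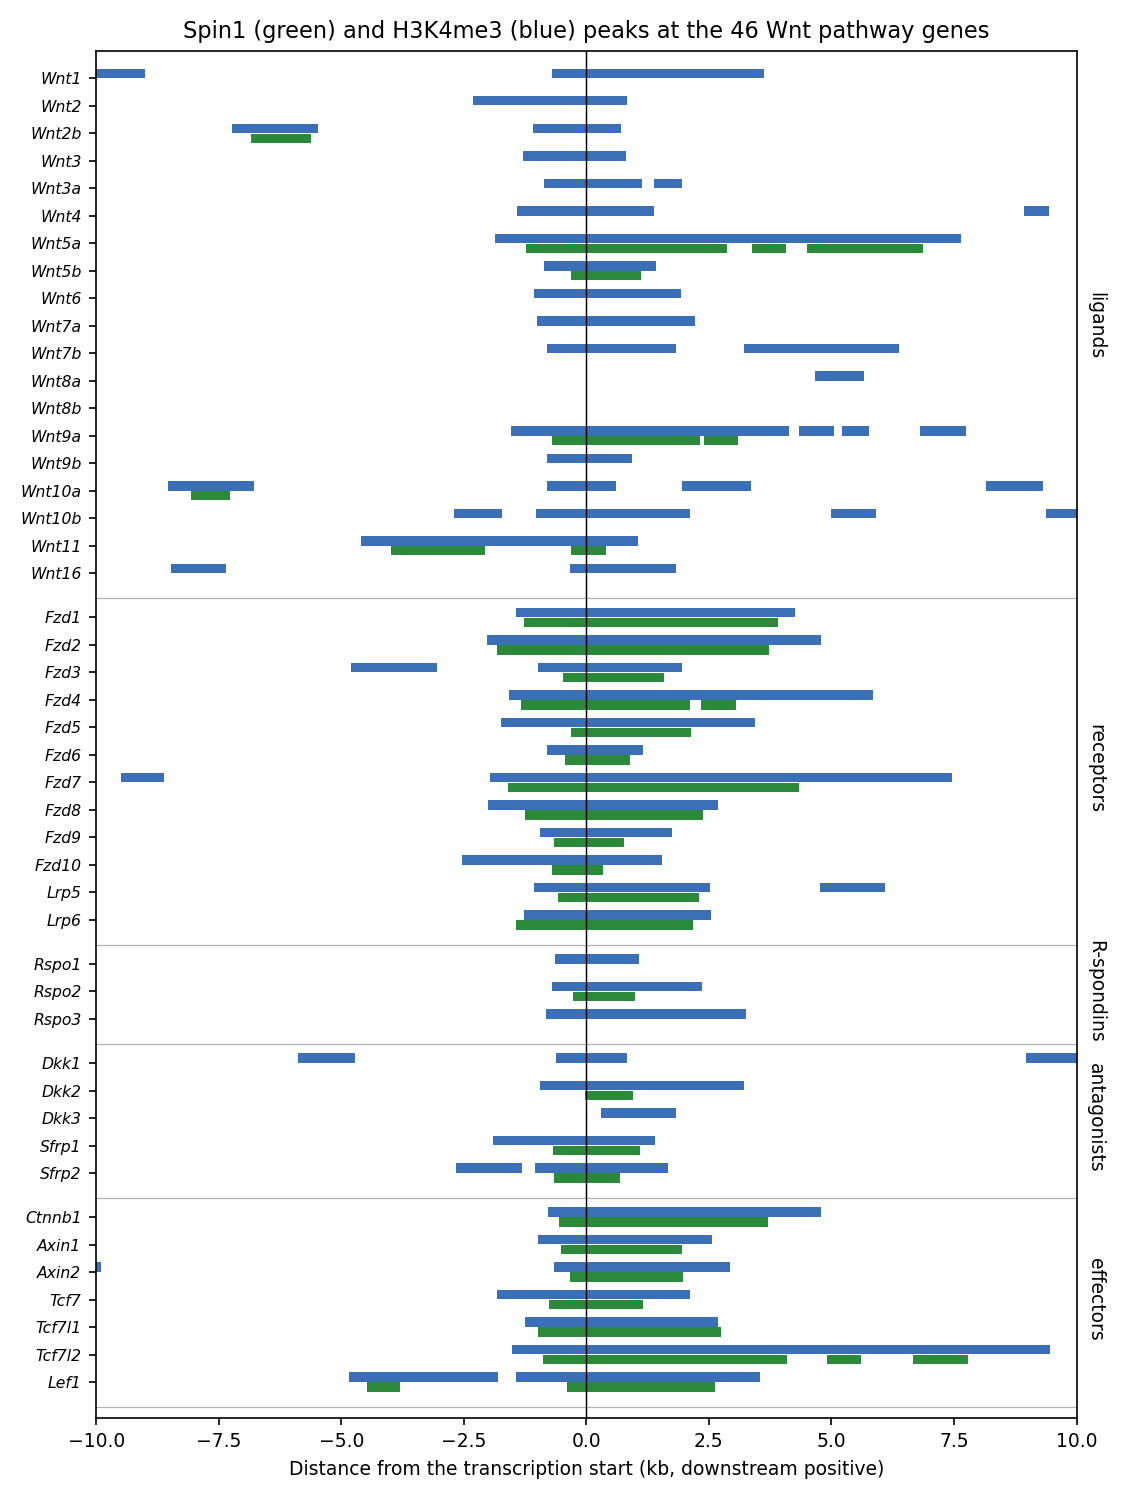
Peaks of H3K4me3 (blue) and Spin1 (green) within 10 kb of the start of the 46 members, grouped by class, with distance from the start in kb on the horizontal axis and transcription to the right. Green bars lie inside or near blue bars at each receptor and effector, and most ligand rows show a blue bar alone at the start.

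The 4 ligands with Spin1 were Wnt5a, Wnt5b, Wnt9a and Wnt11. Wnt5a and Wnt11 are known mainly for β-catenin-independent signalling in cell polarity and movement. At Wnt5a, the widest Spin1 peak spanned 4095 bp (chr14:28504251-28508345) at the score plateau, inside an H3K4me3 peak of 9511 bp. At Wnt9a, which is active in joint formation, the Spin1 peak measured 3016 bp with a score of 2264.38 and the H3K4me3 peak 5659 bp. At Wnt5b, the closest relative of Wnt5a, the Spin1 peak measured 1423 bp with a score of 610.64. These 3 peaks covered the main start of their gene. By its widest peak, Wnt11 had the lowest Spin1 score of all members, with 992 bp at 209.03, although its H3K4me3 peak of 5662 bp was at the plateau.

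The 13 ligands with H3K4me3 alone were Wnt1, Wnt2, Wnt2b, Wnt3, Wnt3a, Wnt4, Wnt6, Wnt7a, Wnt7b, Wnt9b, Wnt10a, Wnt10b and Wnt16. Wnt1, a canonical ligand of the dorsal neural tube that acts on the neighbouring somite, had the widest H3K4me3 peak of them, with 4335 bp (chr15:98789157-98793491). That peak ran from -700 to 3634 bp relative to the start and thus over most of the 3974 bp gene, and the nearest Spin1 peak lay 25952 bp from the start. Wnt7a, a ligand known to act on satellite stem cells through Fzd7, had an H3K4me3 peak of 3218 bp (chr6:91409137-91412354), and the nearest Spin1 peak lay 28873 bp away. The H3K4me3 peaks of Wnt1 and Wnt7a were both at the plateau.

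Among the other ligands with H3K4me3 alone, the widest peak measured 3156 bp at Wnt7b and 3154 bp at Wnt2, genes that are both known from lung development. It measured 3138 bp at Wnt10b, an inhibitor of fat cell formation, and 3008 bp at Wnt6, which is made in surface ectoderm over the somites. Wnt4, a factor of kidney and gonad development, had 2791 bp and Wnt16, a factor in bone, 2145 bp. At Wnt3, which gastrulation requires, the peak measured 2098 bp, at Wnt2b 1788 bp, and at Wnt9b, a kidney inducer, 1747 bp. All of these were at the plateau. Below the plateau were those of Wnt3a, a classical activator of β-catenin, with 1989 bp and a score of 980.18, and of Wnt10a, which is needed in teeth and skin, with 1413 bp and a score of 1222.33. Of the 17 ligands with H3K4me3, 15 were thus at the plateau, beside 12798 of 14281 protein-coding genes with H3K4me3. The ligands with H3K4me3 alone were thus all at the plateau, where scores have no order, except Wnt3a and Wnt10a. The median H3K4me3 width was 2791 bp at the 13 ligands without Spin1 and 5660.5 bp at the 4 with it. Whether the strength of H3K4me3 bears on Spin1 at the ligands was not tested.

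Wnt8a, a ligand of the early embryo, and Wnt8b, a ligand of the forebrain, had neither mark at the promoter. The nearest Spin1 peak lay 34456 bp from the start of Wnt8a and 51532 bp from that of Wnt8b. Each gene held an H3K4me3 peak outside all promoter windows, of 2148 bp at the plateau in Wnt8b (chr19:44510435-44512582) and of 1003 bp with a score of 379.23 in Wnt8a. These promoters also had the lowest CpG ratios among the members, with 0.282 at Wnt8a and 0.326 at Wnt8b.

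Several ligand genes lie next to each other, and 4 pairs of members were within 100 kb. In 3 of these pairs neither gene had Spin1. Wnt1 and Wnt10b point away from each other with starts 11707 bp apart, Wnt3 and Wnt9b likewise with starts 24354 bp apart, and Wnt6 and Wnt10a follow each other on the same strand with starts 20127 bp apart. The fourth pair, Wnt3a and Wnt9a, was divided. Their starts are 16179 bp apart, and Wnt9a had both marks whereas Wnt3a had H3K4me3 alone on a narrower peak (1989 bp against 5659 bp).

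R-spondins are secreted proteins that raise the level of Frizzled receptors at the cell surface by way of Lgr receptors. Rspo2, which is required for limb and lung formation, had a Spin1 peak of 1255 bp with a score of 360.77 in an H3K4me3 peak of 3076 bp. Rspo1 had an H3K4me3 peak of 1711 bp with a score of 3190.24, and Rspo3 had one of 4076 bp at the plateau (chr10:29532610-29536685), both without Spin1. The Spin1 peak nearest to the start of Rspo3 was 162970 bp away. The R-spondin with the widest H3K4me3 peak was therefore among those that lacked Spin1.

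All 10 Frizzled genes and both co-receptor genes carried Spin1 and H3K4me3. All 12 H3K4me3 peaks were at the plateau, beside 12798 of 14281 protein-coding genes with H3K4me3. Where H3K4me3 was at the plateau or above, 91.7% of protein-coding genes had Spin1, so Spin1 at all 12 receptors was near that share. Fzd7, a receptor for Wnt7a on satellite cells, had the widest Spin1 peak of the 46 members, with 5939 bp (chr1:59480550-59486488), from -1597 to 4341 bp relative to the start. Fzd2 and Fzd1 followed with Spin1 peaks of 5552 bp and 5182 bp. The remaining receptor genes with Spin1 at the plateau were Fzd8 with 3625 bp, Lrp6 with 3598 bp, Fzd4 with 3450 bp and Lrp5 with 2880 bp. Below the plateau were Fzd3, a receptor of planar cell polarity, with 2061 bp and a score of 2944.95, and Fzd5 with 2453 bp and 1738.62. Spin1 scores under 1000 were found at Fzd9 (1442 bp, 744.42), at Fzd6 (1335 bp, 390.16), which is also a planar polarity receptor, and at Fzd10 (1049 bp, 264.08). Receptors thus ranged in Spin1 width from 1049 to 5939 bp, with H3K4me3 widths from 1957 to 9426 bp. At 2 of the 12 the window is shared, as the Fzd4 start lies near that of Tmem135 and the Fzd10 start near that of Fzd10os, and the lists cannot assign a peak to 1 of the genes.

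Fzd1, Fzd2, Fzd7, Fzd8, Fzd9 and Fzd10 have a single exon, so that the coding sequence begins close to the start. The Spin1 peak spanned 100% of the coding sequence at Fzd1, Fzd2, Fzd7 and Fzd8. It spanned 42.6% at Fzd9 and 13.0% at Fzd10. In Lrp5, with 23 exons, the peak held 88 bp of coding sequence beside 2087 bp of intron. At Ctnnb1, 3473 of 4263 bp of the Spin1 peak were intronic. The coding bases under the peak numbered 1713 to 2058 at the 4 Frizzled genes that were spanned and at most 435 in the effectors, at Tcf7l1.

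The 5 antagonists bind Wnt proteins (Sfrp1, Sfrp2) or the Lrp co-receptors (Dkk1, Dkk2), and Dkk3 is a divergent member of the Dickkopf family. Spin1 was present at Sfrp1 with 1764 bp and a score of 779.45, at Sfrp2 with 1354 bp and 441.64, and at Dkk2 with 987 bp and 355.24. The Dkk2 peak was the narrowest of all members and covered 23.7% of the H3K4me3 peak of 4160 bp. Dkk1 and Dkk3 had H3K4me3 alone, in peaks of 1443 bp with a score of 1169.8 and of 1533 bp with a score of 462.16. No antagonist had Spin1 at the plateau. The nearest Spin1 peak to Dkk1 was 373813 bp away.

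All 7 effectors carried both marks, with every H3K4me3 peak at the plateau, beside 12798 of 14281 protein-coding genes with H3K4me3. Of protein-coding genes with H3K4me3 at the plateau or above, 91.7% had Spin1, so Spin1 at all 7 was likewise near that share. Tcf7l2, which encodes the β-catenin partner TCF4, had the widest Spin1 peak of the class, with 4976 bp (chr19:55740927-55745902), and the widest H3K4me3 peak of all members, with 10980 bp (chr19:55740284-55751263). The start of Gm31734 lies in the same H3K4me3 peak. Ctnnb1 followed with a Spin1 peak of 4263 bp, Tcf7l1, whose product acts largely as a repressor, with 3734 bp, and Lef1, which is also a target of the pathway, with 3006 bp. Axin1, the constitutive scaffold, had 2472 bp, also at the plateau. Axin2, the scaffold that is itself induced by Wnt signals, had 2290 bp with a score of 1131.85, the lowest of the class. Tcf7, which encodes TCF1, had the narrowest peak of the class with 1917 bp and a score of 1379.63. The lowest effector score thus lay above the Spin1 scores of Wnt5b, Wnt11, Rspo2 and the 3 antagonists.

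Receptors and effectors also had the wider Spin1 peaks. The widest Spin1 peak per occupied gene had a median of 3165 bp in receptors, 3006 bp in effectors, 2219.5 bp in the 4 ligands and 1354 bp in the 3 antagonists, beside 2295 bp over all protein-coding genes with Spin1 at the promoter. Over the 27 occupied members the median was 2472 bp. Scores at the plateau were seen at 13 of the 27, or 48.1%, beside 48.8% of all occupied protein-coding genes, and of these 13, 7 were receptors, 5 effectors and 1 a ligand. Of H3K4me3, the Spin1 peaks covered a median of 63.6% (23.7% at Dkk2 to 93.6% at Tcf7l1), beside 65.9% over all genes with both marks. The extent of Spin1 inside H3K4me3 at the occupied members was thus close to that of other genes.

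**Figure D3:**
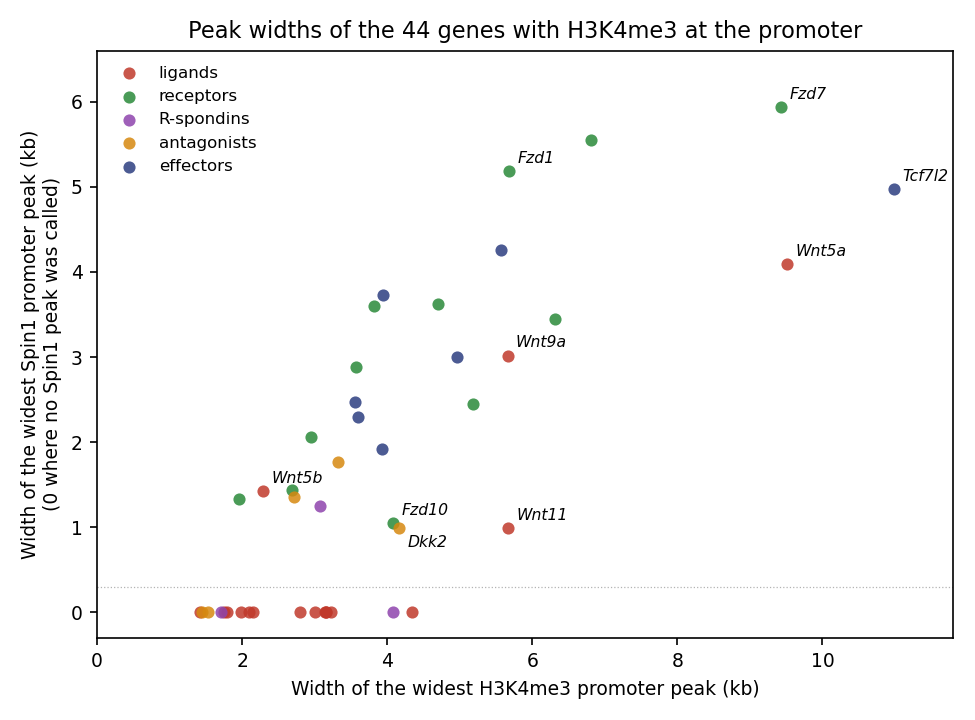
Width of the widest H3K4me3 promoter peak (kb, horizontal) against that of the widest Spin1 promoter peak (kb, vertical, 0 where none was called) for the 44 members with H3K4me3, coloured by class. Points on the bottom line are the 17 members without Spin1, between 1413 and 4335 bp of H3K4me3, and receptors and effectors such as Fzd1 and Tcf7l2 lie above it.

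Because Spin1 was less often present over narrow H3K4me3 peaks, members were set beside all genes of like H3K4me3 width, a comparison chosen after the values were seen. Over all protein-coding genes, Spin1 was present at 9.19% of those with an H3K4me3 peak under 1500 bp, at 43.2% from 1500 to 2000 bp, at 85.8% from 2000 to 3000 bp and at 96.4% from 3000 to 4000 bp. The share was 97.9% from 4000 to 6000 bp and 98.8% above. Of the ligands, 1 of 4 had Spin1 in the range from 2000 to 3000 bp and 0 of 5 from 3000 to 4000 bp. The 5 were Wnt2, Wnt6, Wnt7a, Wnt7b and Wnt10b. Of 3 ligands from 4000 to 6000 bp, Wnt9a and Wnt11 had Spin1 and Wnt1 did not, and in the same range Rspo3 lacked it. All receptors and effectors had Spin1 in each range in which they occurred, down to Fzd6 with an H3K4me3 peak of 1957 bp. Genes without Spin1 had a median H3K4me3 width of 2791 bp in the 13 ligands, 2145 bp in the 17 members and 1669.5 bp over all protein-coding genes. Score gave a like picture. Among protein-coding genes with H3K4me3 at the plateau or above, 91.7% had Spin1, and of the 15 ligands at the plateau 4 had it. No test was made, since the ligands are a chosen family with 1 library behind each mark.

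**Figure D4:**
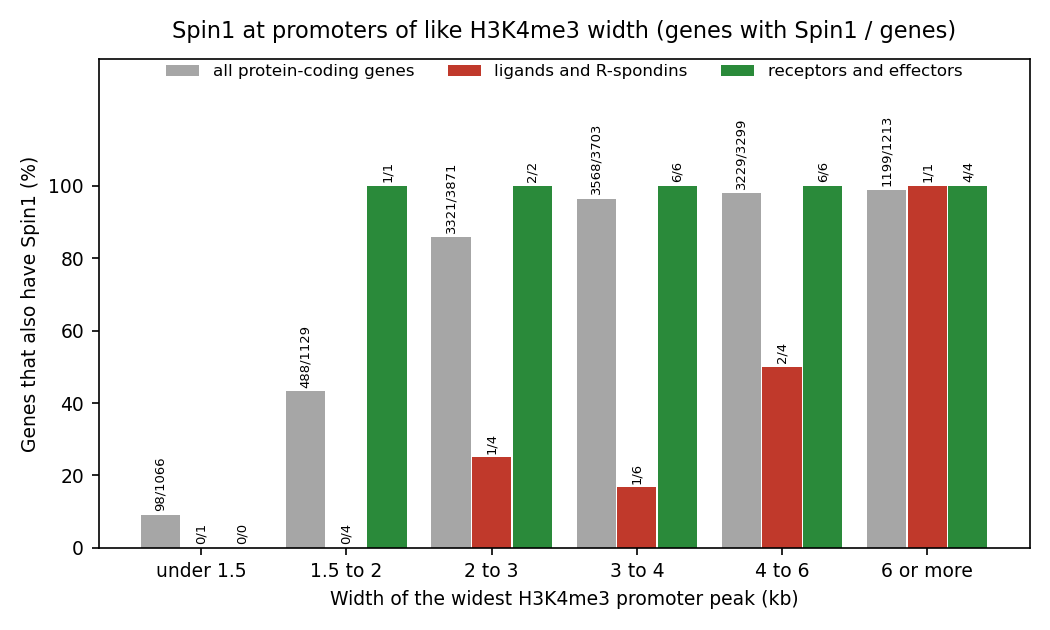
Share of genes (%) with Spin1 among genes with H3K4me3, by width of the H3K4me3 promoter peak (kb), for all protein-coding genes (grey), ligands and R-spondins (red) and receptors and effectors (green), with counts on the bars. From 3 kb to 4 kb the grey bar stands at 96.4% and the red bar at 1 of 6 genes, Rspo2, and the green bars are at full height wherever genes fall in a bin.

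CpG content, which was not used to choose the genes, was higher at members with Spin1. The ratio of observed to expected CpG in TSS±1 kb had a median of 0.773 at the 27 members with both marks, 0.616 at the 17 with H3K4me3 alone and 0.304 at the 2 with neither. The same order was found over all protein-coding genes, with medians of 0.641, 0.455 and 0.172. By class, the median was 0.782 in receptors, 0.768 in effectors, 0.629 in ligands and 0.483 in antagonists, beside 0.501 over all protein-coding genes. The 4 ligands with Spin1 ranged from 0.61 at Wnt11 to 0.87 at Wnt5b. Of the 13 ligands with H3K4me3 alone, 8 were in the same range, from 0.616 at Wnt6 to 0.784 at Wnt4, so the groups overlapped. Dkk2 had Spin1 at a ratio of 0.483, the lowest of the occupied members. Where the ratio was between 0.6 and 0.7, 90.7% of protein-coding genes with H3K4me3 had Spin1, and of 7 such ligands 1 had it. Between 0.4 and 0.6 the share was 79.8%, and 0 of 4 ligands had it. Between 0.7 and 0.8 it was 93.6%, with Spin1 at 1 of 3 ligands. Both ligands between 0.8 and 0.9, Wnt5b and Wnt9a, had Spin1, where the share was 96% of protein-coding genes. The 1 ligand with H3K4me3 below 0.4, Wnt10a, lacked it, where the share was 54%.

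Width and CpG content were then limited together, again after the values were seen. Of protein-coding genes with an H3K4me3 promoter peak of 3 kb or more and a CpG ratio of 0.6 or more, 98.2% had Spin1. Of the members, 9 receptors, 7 effectors, 1 R-spondin (Rspo2) and 1 antagonist (Sfrp1) met both limits and all had Spin1. Among 6 ligands that met them, Wnt5a, Wnt9a and Wnt11 had Spin1 and Wnt6, Wnt7a and Wnt7b did not. Wnt7b met the limits only across different starts. Its peak over 3 kb lay at the third start, whereas CpG was read at the main start, where the H3K4me3 peak measured 2635 bp.

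**Figure D5:**
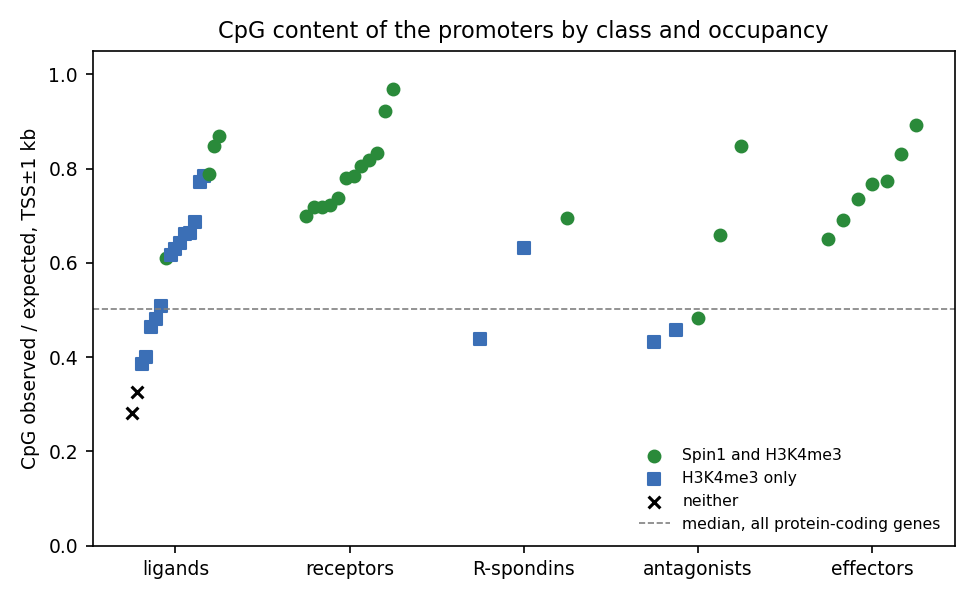
Ratio of observed to expected CpG in TSS±1 kb for each member by class (green circles, Spin1 and H3K4me3; blue squares, H3K4me3 only; crosses, neither), with the median of all protein-coding genes as a dashed line at 0.501. All receptors and effectors lie above the line, and the ligands with H3K4me3 only reach from 0.386 to 0.784 and overlap those with Spin1.

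Alternative starts were examined where curated transcripts of 1 gene begin more than 1 kb apart, which was so for 6 members with 15 separate starts. At Wnt5b, the first start had both marks, the second, 77136 bp downstream, had neither, and the third, 94961 bp downstream, had an H3K4me3 peak of 1159 bp with a score of 914.18 and no Spin1. At Wnt5a, the second start, 5932 bp downstream, lay in the same H3K4me3 peak as the first and had Spin1 peaks of its own, the wider of them with 1306 bp and a score of 701.65. At Wnt11, both starts lay in 1 H3K4me3 peak, and the widest Spin1 peak at the main start had 719 bp and a score of 114.05. The upstream start held the wider Wnt11 peak of 992 bp. All 3 starts of Wnt7b had H3K4me3 without Spin1.

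At Tcf7l2, 24 of the curated transcripts begin at the first start, which had both marks. The internal start, 153511 bp downstream, had an H3K4me3 peak of 7265 bp at the plateau and no Spin1 peak in the window. A Spin1 peak of 769 bp with a score of 128.43 lay further downstream (chr19:55897142-55897910), within that H3K4me3 peak. At Lef1, the first and second start shared a Spin1 peak of 3006 bp, and the third start, 45997 bp downstream, had neither mark. Over all members there were 55 separate starts, of which 30 had Spin1 and 51 had H3K4me3.

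Outside all promoter windows, 14 Spin1 peaks and 61 H3K4me3 peaks lay in the members or within 10 kb of them, and 11 of the 14 overlapped H3K4me3. A peak near neighbouring members was counted for each of them. The highest Spin1 score among the 14 was 711.17, at a peak of 1214 bp upstream of Wnt2b (chr3:104967329-104968542), a ligand gene without Spin1 at the promoter. An H3K4me3 peak of 1750 bp at the plateau contained it. A Spin1 peak of 786 bp with a score of 123.41 lay between the starts of Wnt6 and Wnt10a (chr1:74783956-74784741), 12064 bp from the first and 7278 bp from the second. Tcf7l1 held 12 H3K4me3 peaks and 2 Spin1 peaks of this kind, and Tcf7l2 held 9 and 4. Of the 14 Spin1 peaks, 8 were at effectors, 5 at ligands, with the peak between Wnt6 and Wnt10a counted at both, and 1 at a receptor. Tcf7l1 and Tcf7l2 are the longest members, with 162675 bp and 191863 bp, and gene length was not allowed for. The counts also have no share over all genes beside them, so they cannot be read as a trait of a class.

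The promoters were searched for ATCAAAG, the core to which TCF/LEF factors bind, and for CAGCTG, an E-box of the kind that Myod1 binds, each on both strands of TSS±1 kb. ATCAAAG was found at 10 of 46 members, beside 23.0% of all protein-coding genes. CAGCTG, which reads the same on either strand, was found at 28 of 46, beside 62.3%. Both shares were close to the background. By class, ATCAAAG was found at 4 ligands, 1 receptor, 3 antagonists and 2 effectors. Axin2 held it at 78 and 883 bp downstream of the start, inside its Spin1 peak. A match of letters is not evidence of binding.

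Other genes of the pathway were counted by role in the same way. Of 60 genes on these lists, 46 had Spin1 and 57 had H3K4me3, beside 56.7% and 68.0% of all protein-coding genes, and Spin1 was present at 46 of the 57 with H3K4me3, beside 83.3%. Of 17 cytoplasmic components, such as Dvl proteins, Gsk3 kinases and casein kinases, 16 had Spin1, and the exception was Apc2 with an H3K4me3 peak of 4605 bp. All 11 nuclear cofactors, among them Bcl9, Pygo and Tle genes, had both marks. Every gene of these cytoplasmic and nuclear lists had H3K4me3 at the plateau. Of protein-coding genes with H3K4me3 at the plateau or above, 91.7% had Spin1, so both counts were near that share. The widest Spin1 peak of these lists was that of Gsk3b, the kinase that marks β-catenin for destruction, with 6793 bp. In the secretion of Wnt proteins, Porcn and Wls had Spin1 and the extracellular inhibitor Notum did not.

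Of 10 genes of alternative receptors and the R-spondin axis, Ror1, Ror2, Ryk, Ptk7, Lgr4 and Znrf3 had Spin1, whereas Rspo4, Lgr5, Lgr6 and Rnf43 had H3K4me3 alone. Lgr5, known as a stem cell marker and target of the pathway, had an H3K4me3 peak of 3831 bp at the plateau. Of 10 other antagonists, 4 had Spin1 and 7 had H3K4me3. Those with Spin1 were Sfrp4, Frzb, Wif1 and Kremen1, of which Kremen1, a membrane receptor for Dickkopf proteins, was at the plateau with 4144 bp. Of 9 planar polarity genes, 7 had Spin1, and Celsr1 and Celsr3 had H3K4me3 alone. The lists were made with earlier results of these data known.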

How the data were processed

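ChIP-seq was performed by the authors in primary myoblasts with 1 library each for Spin1 and H3K4me3 (12 PCR cycles). Per the submitters' processing notes, Bowtie2 and MACS 1.4.2 were used with mm10, the assembly GRCm38. By the methods of the study, peaks were called against input DNA and those with a false discovery rate above 1% were removed. The authors deposited start, end and MACS score of 17106 Spin1 and 30763 H3K4me3 peaks, with scores from 50.66 and 50.03. Read counts, depth and values below the threshold are not in the lists.

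Peaks were compared with 45756 curated transcripts on 21 chromosomes (RefSeq release 108.20200622), and promoters were TSS±1 kb with an overlap of 1 bp. Width and score refer to the widest promoter peak of a gene. CpG and motifs were read from the reference at 1 start per gene, that of the RefSeq Select transcript. Where a gene had no such transcript, which was so for none of the members, the one with the longest span was taken. Promoter sequences are from RefSeq (GRCm38.p6). The overlap step was tested on simulated data and recovered 1000 of 1000 genes. Python 3.11.15, NumPy 2.4.6, pandas 2.3.3 and matplotlib 3.10.9 were used.

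Every member is accounted for. By rule, values are given for the widest, narrowest and lowest-scoring Spin1 peaks of each class, members without Spin1, starts over 1 kb apart that differ and member pairs within 100 kb, and printed sequences follow CpG ratio. The members, lists and rules were chosen with earlier results of these data known. Shares by H3K4me3 width, score and CpG were added after the values were seen. A further marker list is not reported here.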

Additional observations from a re-analysis of the deposited data

How the results depend on the processing

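For the 22 results, 126 alternatives were computed, of which 116 left the count within 1.5 times or the median within its binomial interval over genes, which are not replicates, and 10 moved. Windows of TSS±0.5 kb and TSS±2 kb, a window of 1 kb upstream to 0.1 kb downstream, 1 start per gene, a score of at least 100, an overlap of at least 200 bp and a peak that covers the start moved no count of occupied members or classes beyond 1.5 times. When each list was limited to the better-scoring 50% of its peaks, Spin1 was counted at 17 members, all 17 with both marks, beside 42.9% of protein-coding genes. Under that setting, Spin1 was counted at 2 ligands, 0 R-spondins and 0 antagonists, and H3K4me3 at 3 antagonists, beside 63% of protein-coding genes, whereas 9 receptors and 6 effectors had Spin1. Among the remaining results, a window of TSS±0.5 kb gave a median CpG ratio of 0.837 for members with Spin1 and 6 members with ATCAAAG, beside 10.3% of protein-coding genes in that window, and a flank of 50 kb gave 31 Spin1 and 115 H3K4me3 peaks outside promoters. Joining all promoter peaks was run for the widths but not for the share of H3K4me3 that Spin1 covers, which already uses all peaks. No paired analysis was possible because each antibody has 1 library. Without replicates, read counts or values below the calling threshold, a weak Spin1 signal at the ligands cannot be told apart from none.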
